A study of Danio rerio with 6 samples.

Results

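The genes described here are 9 genes of the integrated stress response in zebrafish: the transcription factor genes atf3, atf4a, atf4b, atf5b, ddit3 and xbp1, and the target genes asns, chac1 and trib3. Probe sets were taken by gene symbol in the array's annotation. Of the 9 genes, 7 had a probe set under their symbol, and they held 9 of the 15617 probe sets on the array, with 2 each for asns and chac1. The genes ddit3 and trib3 are named only. The genes were picked with their signals on these arrays known, in all 3 groups. Their levels and differences are therefore a description, with no p-value. Whether one of them passed a threshold, a count of those that did, and the interval of a change support nothing beyond the values.

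RNA came from whole zebrafish embryos at 72 hours post fertilization (hpf), raised at 28 °C. Eggs pooled over different aquaria were injected, no later than the 4 cell stage, with 15 uM of the morpholino ERbeta2 MO, named for an estrogen receptor, or with 15 uM of the control morpholino coMO, and the remaining group received no injection. Morpholinos are antisense oligomers that block an RNA they pair with, and from an injected egg they spread to every tissue. Each of the 3 groups had 2 arrays, labelled as biological replicates, and nothing in the labels gives a genotype, a strain or the number of embryos in a pool. The series title names neuromasts, the sense organs of the lateral line, while the RNA is from the whole animal.

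The integrated stress response starts when a kinase phosphorylates the translation initiation factor eIF2. General translation then falls, while a few mRNAs, among them those of the ATF4 factors, are translated better. ATF4 turns on genes for amino acid supply, tRNA charging and redox balance, and further factors such as ATF3, ATF5 and CHOP (the ddit3 product). One of the kinases, PERK, sits in the membrane of the endoplasmic reticulum (ER) and responds to unfolded protein there, as do ATF6 and the Ire1 to Xbp1 branch, which turn on ER chaperone genes. Arrays measure mRNA, so phosphorylation and translation were not measured.

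Values are MAS5 signals on a linear scale, one per probe set and array, and the 2%-trimmed mean was 500.1 on all 6 arrays. The GAPDH 3'/5' ratio, which is higher where RNA is less intact or copied less completely, was 2.76 and 2.01 in the ERbeta2 MO arrays, 1.95 and 1.23 in the coMO arrays and 1.32 and 1.24 in the uninjected arrays. The brighter probe set of esr2a, which the gene table names zfER-beta2, gave 51.8 to 94.9 over the arrays. A morpholino does not have to lower its target's mRNA, so these signals check nothing. Of the 9 probe sets, 8 passed the filter on low signals (a mean over the arrays above 72.8), and the dimmer chac1 probe set did not. Fitted changes refer to log2(signal + 32), where the added constant shrinks the change of a dim probe set.

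In embryos with the ERbeta2 morpholino the fitted signals of the 4 ATF genes were about 2 to 5 times as high as with the control morpholino. The fitted folds were 4.53 for atf3, 3.54 for atf5b, 2.2 for atf4a and 2.02 for atf4b. The change of atf4a did not pass against coMO, and its ERbeta2 MO arrays lay 1.93-fold apart. With ERbeta2 MO replicate 2 alone for the group, its log2 change against coMO was 0.67. Of the target genes, chac1 and one asns probe set had lower signals on both ERbeta2 MO arrays, and neither passed the threshold against coMO. That asns probe set lay under the filter's level in ERbeta2 MO, so its call is not read. The other asns probe set was level. The gene xbp1 was level between the 2 morpholinos and lower in both than in uninjected embryos, though neither change from uninjected embryos passed. The 7 genes measured did not all move one way: neither of the 2 target genes measured was higher beside the ATF factor genes. In RNA from whole embryos, fewer cells of a type and less RNA per cell cannot be told apart.

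**Figure D1:**
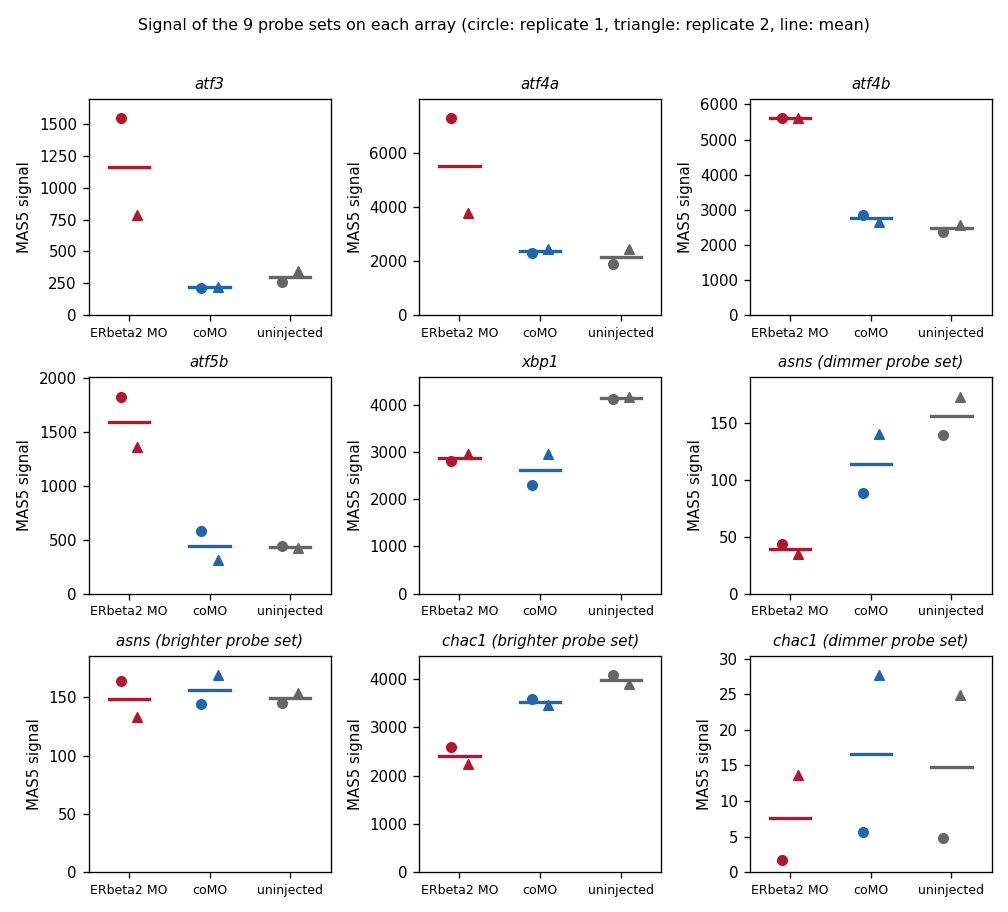
MAS5 signal (y axis, linear from 0, a scale of its own in each panel) of the 9 probe sets on each of the 6 arrays, by group (x axis), with circles for replicate 1, triangles for replicate 2 and a line at the mean. Both ERbeta2 MO arrays lie above the other 4 for atf3, atf4a, atf4b and atf5b, and below them for chac1 (brighter) and asns (dimmer).

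The gene atf3 encodes a bZIP factor that is switched on within hours by many stresses and that mostly represses transcription. Its signal was 1546 and 783 in the ERbeta2 MO arrays, 216 and 221 in the coMO arrays and 260 and 346 in the uninjected arrays. Both ERbeta2 MO arrays lay far above the other 4, and they differed from each other 1.97-fold, with replicate 1 the higher. The group means were 1165 ± 540, 219 ± 3.52 and 303 ± 60.7 (SD, n = 2 each). The fitted change was 2.18 against coMO (SE 0.313) and 1.77 against uninjected embryos, and atf3 passed the threshold in both. With ERbeta2 MO replicate 2 alone for the group, the lower of the pair, the change against coMO was 1.70, and with replicate 1 alone it was 2.66.

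Zebrafish carry 2 copies of ATF4, the central factor of the response, and both were higher. For atf4a the arrays gave 7270 and 3769 in the ERbeta2 MO arrays, 2280 and 2444 in the coMO arrays and 1877 and 2454 in the uninjected arrays. The ERbeta2 MO arrays lay above the other 4, but the pair was 1.93-fold apart, again with replicate 1 the higher. The means were 5519 ± 2476, 2362 ± 115 and 2165 ± 408 (SD, n = 2 each). The change of atf4a was 1.14 against coMO (SE 0.304), which did not pass, and 1.27 against uninjected embryos, which did. It was 0.67 against coMO with replicate 2 alone for ERbeta2 MO and 1.61 with replicate 1 alone.

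The second copy, atf4b, was the most even of the 9 probe sets within the ERbeta2 MO group. Its signal was 5607 on each ERbeta2 MO array, 2847 and 2664 on the coMO arrays and 2361 and 2577 on the uninjected arrays. The ERbeta2 MO arrays were close to double the other 4 or above that. The means were 5607 ± 0.0636, 2755 ± 130 and 2469 ± 153 (SD, n = 2 each). The change was 1.02 against coMO and 1.17 against uninjected embryos (SE 0.175), and atf4b passed in both.

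The gene atf5b encodes a factor related to ATF4 that in mammals acts in the stress response of the ER and of mitochondria. Its signal was 1826 and 1362 in the ERbeta2 MO arrays, 577 and 308 in the coMO arrays and 446 and 424 in the uninjected arrays. Both ERbeta2 MO arrays were more than double the highest of the other 4, the first coMO array. The means were 1594 ± 328, 442 ± 190 and 435 ± 15.9 (SD, n = 2 each). The change was 1.82 against coMO and 1.79 against uninjected embryos (SE 0.294), and atf5b passed in both.

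The gene xbp1 encodes the factor of the Ire1 branch of the ER response, whose mRNA is spliced into its active form. Splicing was not analysed here. The signal was 2802 and 2955 in the ERbeta2 MO arrays, 2299 and 2949 in the coMO arrays and 4114 and 4168 in the uninjected arrays. The 2 morpholino groups overlapped, and the uninjected arrays lay above all 4. The change was 0.14 between the morpholinos (SE 0.193, 95% interval -0.301 to 0.586), and it was -0.04 without coMO replicate 1. Against uninjected embryos it was -0.52 for ERbeta2 MO and -0.66 for coMO, and neither passed. The order of the group means was uninjected, ERbeta2 MO and coMO (4141 ± 38.4, 2878 ± 108 and 2624 ± 460, SD, n = 2 each), in which the last pair did not differ beyond their spread.

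The gene asns encodes asparagine synthetase, one of the best known targets of ATF4. Its 2 probe sets disagreed. The dimmer gave 43.3 and 35.1 in the ERbeta2 MO arrays, 88.4 and 140 in the coMO arrays and 139 and 173 in the uninjected arrays. The ERbeta2 MO arrays were the lowest, and their mean of 39.2 ± 5.74 (SD, n = 2) lay under the filter's level, so the probe set passed the filter through the other groups, where it had to be higher, and its call is not read. The fitted change was -1.02 against coMO and -1.40 against uninjected embryos (SE 0.259). With so low a signal its size depended on the setting, from -1.49 to -0.61 and from -1.97 to -0.88 over the alternatives.

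The brighter asns probe set gave 164 and 133 in the ERbeta2 MO arrays, 144 and 169 in the coMO arrays and 145 and 154 in the uninjected arrays. All 3 groups overlapped, with means of 148 ± 22.2, 157 ± 17.7 and 150 ± 5.97 (SD, n = 2 each). The change was -0.07 against coMO (95% interval -0.566 to 0.427) and -0.02 against uninjected embryos (-0.512 to 0.481), and median centring of the arrays put them at 0.00 and 0.10, quantile normalization at 0.01 and 0.15. Neither probe set of asns was higher in ERbeta2 MO beyond its error, and which of them reads asns mRNA better cannot be told from the files.

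The gene chac1 encodes an enzyme that breaks down glutathione and is a target of ATF4 and CHOP in mammals. Its brighter probe set gave 2583 and 2239 in the ERbeta2 MO arrays, 3590 and 3456 in the coMO arrays and 4079 and 3888 in the uninjected arrays. The groups did not overlap, with ERbeta2 MO lowest and uninjected highest, and means of 2411 ± 243, 3523 ± 95.3 and 3984 ± 135 (SD, n = 2 each). The change was -0.54 against coMO (SE 0.18), which did not pass, and -0.72 against uninjected embryos, which did. The dimmer probe set gave 1.65 to 27.7 over the 6 arrays, in overlapping groups, and was not tested.

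**Figure D2:**
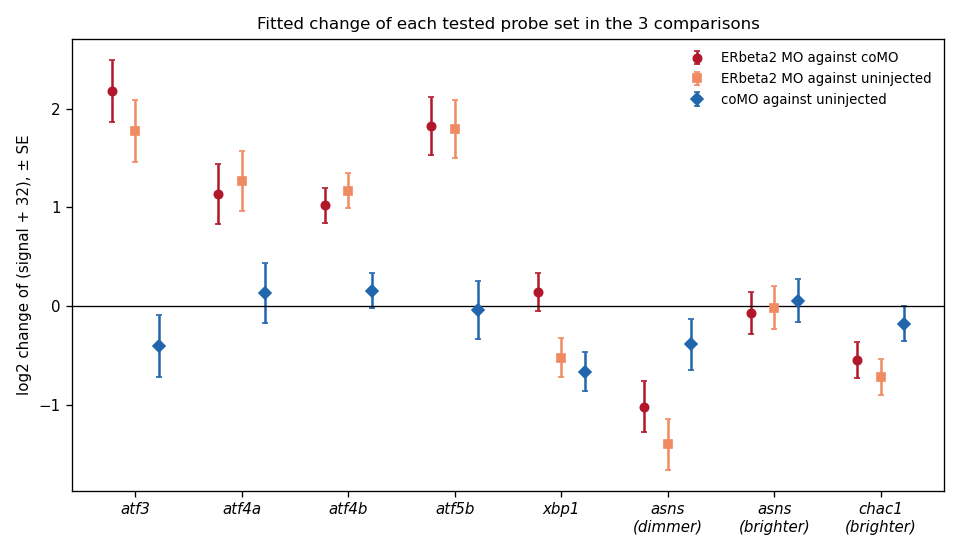
Fitted log2 change of signal + 32 (y axis) of the 8 tested probe sets (x axis) in the 3 comparisons, each with its standard error as a bar. The ATF genes sit between 1.02 and 2.18 in both comparisons of ERbeta2 MO and within 2 standard errors of 0 between coMO and uninjected embryos, while chac1 and the dimmer asns probe set sit below 0.

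Against coMO, which sets the targeted oligomer against an injected control, 3 of the 8 tested probe sets were called higher at a limma adjusted p of 0.05 (atf3, atf4b and atf5b) and 0 lower, where 0.654% of all 11626 tested probe sets were called higher and 1.63% lower. Against uninjected embryos 4 were called higher and 2 lower (chac1 and the dimmer asns probe set, which is under the filter's level in ERbeta2 MO), with a background of 8.31% higher and 10.2% lower. The genes were chosen on these contrasts, so nothing is read from the counts. The 2 groups of arrays did not overlap for 4 probe sets higher and 2 lower against coMO, with a background of 24.6% and 23.5%. Against uninjected embryos they did not overlap for 4 higher and 3 lower, with a background of 33.6% and 30.1%. The dimmer asns probe set is among the lower ones in both comparisons, and it also enters the medians that follow. The median change of the 8 was 0.581 against coMO and 0.577 against uninjected embryos, and that of all tested probe sets was -0.00546 and 0.0262.

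These calls rest on few arrays. Against coMO, limma called 0 of the 8 without coMO replicate 1, without coMO replicate 2 or without uninjected replicate 2, 1 without uninjected replicate 1, and 4 without ERbeta2 MO replicate 2. Against uninjected embryos it called 0 without uninjected replicate 1 and 1 without uninjected replicate 2. The direction of atf3, atf4a, atf4b and atf5b was the same in all 17 alternative fits of both comparisons. For each of these genes both ERbeta2 MO arrays lay above all others, so leaving out 1 array could not turn the direction. The genes were also picked with these signals known, so the kept direction supports nothing beyond the values.

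Between coMO and uninjected embryos, the comparison that asks what injection of the control oligomer changed, the 95% intervals of the 4 ATF genes all included 0. The change was -0.41 for atf3, 0.14 for atf4a, 0.16 for atf4b and -0.04 for atf5b. The largest of the 8 was xbp1, at -0.66 (95% interval -1.11 to -0.219). Limma called 0 of the 8 and 0% of all tested probe sets, higher or lower, while 1456 of 11626 had an unadjusted p under 0.05. The groups did not overlap for 1 of the 8 higher (atf4b) and 3 lower (atf3, xbp1 and chac1), with a background of 28.9% and 26.3%. The 3 comparisons share groups, so a change in one carries into the others.

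The authors' deposited table of ERbeta2 MO over coMO listed 5 of the 9 probe sets, with ratios of 5.583 for atf3, 3.909 for atf5b, 2.284 for atf4a, 2.203 for atf4b and 0.474 for the dimmer asns probe set. The authors' deposited table of ERbeta2 MO over uninjected embryos listed the same 5 probe sets, with ratios of 4.26 for atf5b, 3.675 for atf3, 2.811 for atf4a, 2.656 for atf4b and 0.35 for asns. The authors' deposited table of coMO over uninjected embryos listed 0 of the 9. Its direction was inferred from the array signals, whose sign its ratios matched for 100% of the listed probe sets. These tables hold 6.7%, 15.6% and 3.46% of the array's probe sets and no ratio between 0.5 and 2, and come from the same arrays, so they are no separate measurement.

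The GAPDH ratio moved with the groups. Both ERbeta2 MO arrays had a higher GAPDH ratio than the other 4, and the array with the highest ratio, ERbeta2 MO replicate 1, also had the highest atf3, atf4a and atf5b signals. ERbeta2 MO replicate 2 and coMO replicate 1 had nearly the same ratio, 2.01 and 1.95. On the acta1 3'/5' ratio, read the same way, the order was another: 8.92 and 13.5 on the ERbeta2 MO arrays, 21.8 and 10.8 on the coMO arrays and 3.54 and 4.26 on the uninjected arrays. The pair near each other on GAPDH differed on it, with 13.5 against 21.8 and the coMO array higher. Between the arrays of that pair atf3 was 783 and 216, atf4a 3769 and 2280, atf4b 5607 and 2847, and atf5b 1362 and 577. Both ERbeta2 MO arrays lay above all others for these genes, so the order within the pair was fixed in advance. The pair is 1 array against 1, and nothing is read from it. With the ratio as a covariate the changes against coMO were 1.83 for atf3, 0.84 for atf4a, 0.97 for atf4b and 1.13 for atf5b. Against uninjected embryos they were 1.26, 0.84, 1.11 and 0.78 in the same order. Limma then called 0 probe sets in either comparison, with 773 and 1053 of 11626 at an unadjusted p under 0.05. The covariate is partly aligned with the groups, so this fit cannot tell RNA quality and the morpholino apart.

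**Figure D3:**
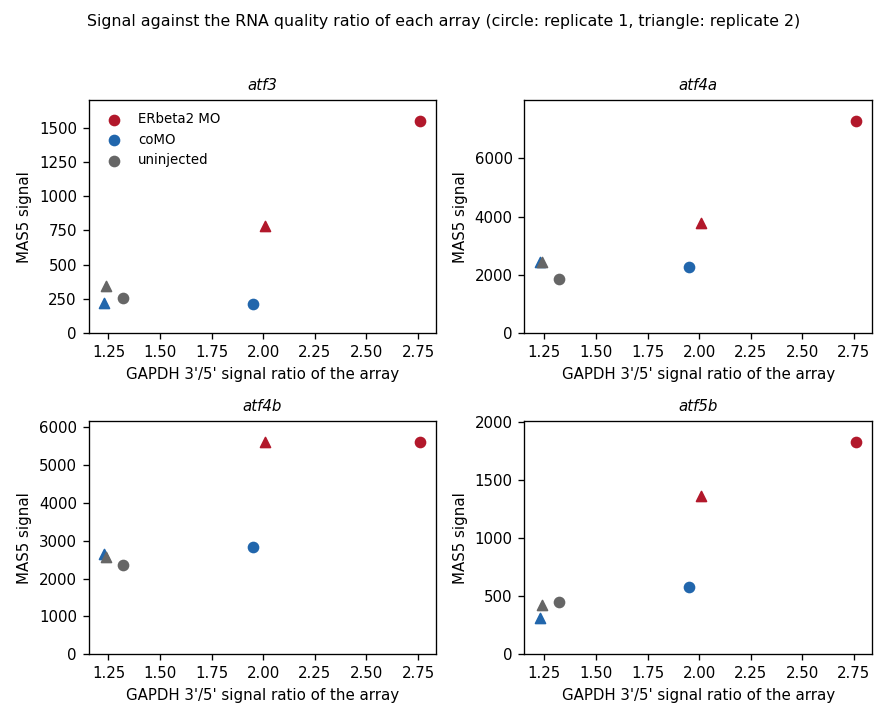
MAS5 signal (y axis, linear from 0) of atf3, atf4a, atf4b and atf5b against the GAPDH 3'/5' signal ratio of the array (x axis, no unit), 1 point for each of the 6 arrays, coloured by group. Both ERbeta2 MO arrays lie above all others in all 4 panels, so the pair at the nearly equal ratios of 2.01 and 1.95 does so too. That pair is 1 array against 1, and it differed on the acta1 3'/5' ratio, with 13.5 (ERbeta2 MO) against 21.8 (coMO).

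The rest of the pathway was read from 6 lists of 208 genes in all, chosen with earlier results of these data known. Of these, 127 genes had a tested probe set. The limma fit called 1 higher (0.787%) and 3 lower (2.36%) against coMO, beside 0.654% and 1.63% of all tested probe sets. Against uninjected embryos it called 6 higher (4.72%) and 19 lower (15%), beside 8.31% and 10.2% of all. Between coMO and uninjected embryos it called 0, with 11 at an unadjusted p under 0.05, beside 1456 of all 11626. Without coMO replicate 1 or 2 limma called only 1 and 0 of all 11626 probe sets against coMO, and without uninjected replicate 1 or 2 only 35 and 390 against uninjected embryos, so single calls below depend on those arrays. The medians were 0.0375, 0.0278 and -0.105.

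Upstream of the ATF factors, the genes of the eIF2 kinases and eIF2 machinery gave few calls. Only 1 of the listed eIF2 kinase genes, eif2ak3, had a tested probe set, so the other kinase genes were not read. Of 13 genes tested limma called 0 against coMO, with a median change of 0.186. An unadjusted p under 0.05 was found for 5 of the 13, beside 2367 of all 11626 tested probe sets. The gene eif2ak3, which encodes PERK, gave 417 and 377 (ERbeta2 MO), 582 and 498 (coMO), and 389 and 408 (uninjected). Its change from coMO was -0.41 (limma adjusted p = 0.281), and from uninjected embryos -0.01 (adjusted p = 0.981). Both coMO arrays lay above all others, while the ERbeta2 MO and uninjected arrays overlapped. The probe set that stands for ppp1r15a, which encodes the GADD34 subunit that reverses eIF2 phosphorylation, had a difference of -0.0044 from coMO (adjusted p = 0.993). Of its further probe sets, 1 fell by 1.08 against uninjected embryos (adjusted p = 0.0481). Against uninjected embryos 1 of the 13 rose and 1 fell, near the background of 8.31% and 10.2%, with a median of 0.27. The gene eif2b2, a subunit of the exchange factor that recharges eIF2, rose by 0.91 (adjusted p = 0.0234). The gene dnajc3a, a co-chaperone that inhibits the eIF2 kinases, fell by 0.86 (adjusted p = 0.028).

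A list of 18 other ATF and bZIP genes holds genes that pair with ATF4 or ATF3 or belong to their family. Against coMO 1 rose and 0 fell, where the background was 0.654% and 1.63%. Against uninjected embryos 2 rose and 1 fell, where the background was 8.31% and 10.2%. The AP-1 gene fosl2 gave 913 and 603 in the ERbeta2 MO arrays, 299 and 271 in the coMO arrays and 242 and 275 in the uninjected arrays. It rose by 1.29 against coMO (SE 0.24, limma adjusted p = 0.042) and by 1.42 against uninjected embryos (adjusted p = 0.00861), while its other probe sets, at 0.73 and 0.33 against coMO, were not called. The call against coMO was lost, among other settings, with no filter on low signals, with replicate number as a block, with only the 4 arrays compared and with the GAPDH covariate. The gene atf5a, the second copy of ATF5, gave 2022 and 2098 in the ERbeta2 MO arrays, 1602 and 918 in the coMO arrays and 893 and 926 in the uninjected arrays. It rose by 1.15 against uninjected embryos (adjusted p = 0.0219), and its change of 0.75 against coMO did not pass (adjusted p = 0.17). The call of the liver factor gene creb3l3a, at -0.81 against uninjected embryos (adjusted p = 0.0398), held in 4 of 16 alternatives. Its ERbeta2 MO signals of 60.6 and 61.9 lay under the filter's level, which it passed through the uninjected arrays at 129 and 133.

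Partners without a call differed among themselves. The gene fosab, an early response gene, gave 1824 and 805 in the ERbeta2 MO arrays, 434 and 328 in the coMO arrays and 769 and 1126 in the uninjected arrays. Its change was 1.61 against coMO (limma adjusted p = 0.0675) and 0.37 against uninjected embryos (adjusted p = 0.508). Of its 3 further probe sets, all were above 0 against coMO (0.52 to 1.34), while 2 were below 0 against uninjected embryos (-0.55 and -0.78), and limma called 0 of the 3. The ATF4 partner genes cebpb and cebpg differed from coMO by 0.95 and 0.51 without passing (adjusted p = 0.22 and 0.182). For cebpb, ERbeta2 MO replicate 1 gave 1046 and replicate 2 gave 384, which lies below the uninjected arrays. For jun, an AP-1 gene, the difference from coMO was 0.17 (adjusted p = 0.725). The median of the 18 was 0.226 against coMO and 0.189 against uninjected embryos, and the latter turned to -0.207 without ERbeta2 MO replicate 1 and to -0.255 with the GAPDH covariate.

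The list of ATF4 target and amino acid genes was centred near 0. Of 33 tested, 0 rose and 1 fell against coMO (background 0.654% and 1.63%), and 0 rose and 6 fell against uninjected embryos (8.31% and 10.2%). With each array centred on its median, 2 were called higher and 6 lower against uninjected embryos, and without ERbeta2 MO replicate 2, 3 were called higher and 3 lower against coMO. The median was 0.00521 and 0.00956, and quantile normalization turned it to -0.0375 and -0.0114. The gene slc3a2b, a copy of the heavy chain gene of an amino acid transporter, had changes of 0.52 against coMO and -0.14 against uninjected embryos. Neither passed (limma adjusted p = 0.173 and 0.614). The other copy, slc3a2a, gave 378 and 418 (ERbeta2 MO), 749 and 945 (coMO), and 1171 and 1020 (uninjected). It fell by 1.02 against coMO (SE 0.207, limma adjusted p = 0.0487), a call that held in 5 of 17 alternatives and was lost, among others, with median centring, quantile normalization and a pseudocount of 1. It fell by 1.39 against uninjected embryos (adjusted p = 0.0065), a call that held in 15 of 17.

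Against uninjected embryos the aspartate aminotransferase gene got1 fell by 1.29 and the amino acid transporter gene slc38a4 fell by 1.25 (limma adjusted p = 0.00837 each). The ER degradation gene herpud1 fell by 1.05 (adjusted p = 0.0153). The serine synthesis genes psat1 and phgdh had differences of -0.21 and -0.22 from coMO that did not pass (adjusted p = 0.645 and 0.663). In psat1 the groups gave 525 and 419 in the ERbeta2 MO arrays, 501 and 597 in the coMO arrays and 691 and 539 in the uninjected arrays, so ERbeta2 MO and coMO overlapped. The genes slc7a11 and sesn2 are named only, and ddit4 fell under the filter.

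The aminoacyl-tRNA synthetase genes, which load amino acids on tRNAs and include targets of ATF4 in mammals, gave mostly positive changes. Of 17 tested, 16 had a change above 0 against coMO, with a median of 0.603, but limma called 0 (background 0.654% higher and 1.63% lower). An unadjusted p under 0.05 was found for 8 of the 17, beside 2367 of all 11626 tested probe sets. Against uninjected embryos the median was 0.708 and 3 rose, with a background of 8.31%. That count was 2 without the first ERbeta2 MO array, 13 without the second, and 0 without any 1 of the coMO or uninjected arrays, with only the 4 arrays compared or with the GAPDH covariate. The gene farsa rose by 1.19 (limma adjusted p = 0.0278), iars1 by 1.12 (adjusted p = 0.0451) and eprs1 by 0.99 (adjusted p = 0.037), which charge phenylalanine, isoleucine, and glutamate and proline. The ERbeta2 MO arrays stood apart from each other here: farsa gave 2176 and 1132, iars1 1677 and 834, and eprs1 4491 and 2548. Without ERbeta2 MO replicate 2, 12 of the 17 were called higher against coMO, with a median of 1.04. Without ERbeta2 MO replicate 1, 0 were called, with a median of 0.243, and with the GAPDH covariate the median was 0.323.

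In the list of ER chaperones and ATF6 or XBP1 targets, all genes called in the fit used above were lower. Of 41 tested, 0 rose and 2 fell against coMO (background 0.654% and 1.63%), with a median of -0.343. Against uninjected embryos 0 rose and 11 fell (background 8.31% and 10.2%), with a median of -0.398. The 11 include pdia2, which was under the filter's level in ERbeta2 MO. They also include herpud1 and dnajc3a, which the lists of ATF4 targets and of eIF2 machinery count as well. With each array centred on its median, 1 was called higher and 10 lower against uninjected embryos. With the GAPDH covariate, 0 were called in either comparison. The ER chaperone gene hsp90b1, which encodes Grp94, gave 826 and 1022 in the ERbeta2 MO arrays, 2471 and 2824 in the coMO arrays and 1909 and 2518 in the uninjected arrays. The ERbeta2 MO arrays lay below the other 4, and hsp90b1 fell by 1.49 against coMO (SE 0.218, limma adjusted p = 0.0234). The calreticulin gene calr3a gave 2042 and 2274 in the ERbeta2 MO arrays, 4529 and 4553 in the coMO arrays and 4523 and 4657 in the uninjected arrays, and fell by 1.06 against coMO (adjusted p = 0.0347).

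The gene hspa5 encodes BiP, the main chaperone of the ER and the usual sign of unfolded protein there. It gave 3363 and 2462 in the ERbeta2 MO arrays, 4243 and 4791 in the coMO arrays and 3368 and 4054 in the uninjected arrays. Its change was -0.64 against coMO (limma adjusted p = 0.159) and -0.36 against uninjected embryos (adjusted p = 0.274), so neither passed and neither was above 0. The changes of dnajc3a and herpud1 against coMO were -0.72 and -0.78 (adjusted p = 0.12 and 0.0989). Against uninjected embryos hsp90b1 fell by 1.23 (adjusted p = 0.0102) and the calreticulin gene calr3b fell by 1.22 (adjusted p = 0.00831). The gene pdia2 encodes a protein disulfide isomerase found mostly in the pancreas, and it gave 14.1 and 42.7 in the ERbeta2 MO arrays, 110 and 159 in the coMO arrays and 655 and 321 in the uninjected arrays. It was called lower against uninjected embryos (adjusted p = 0.00402), but both ERbeta2 MO signals lay under the filter's level, which it passed through the other groups, and the fitted change ran from -4.16 to -2.14 over the alternatives. The genes atf6 and ern1, which encode ER stress sensors, are named only. Without coMO replicate 1 or 2, 0 of the 41 were called against coMO, and 4 and 9 were called without ERbeta2 MO replicates 1 and 2.

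The mitochondrial stress genes, on which ATF5 acts in mammals, gave 0 limma calls of 11 against coMO. The median was -0.0112, and it was 0.0609 with each array centred on its median. An unadjusted p under 0.05 was found for 1 of the 11 there, beside 2367 of all 11626 tested probe sets. Against uninjected embryos 0 rose and 2 fell, with a background of 8.31% and 10.2%, and nothing is read from so small a count. The mitochondrial chaperonin gene hspd1 fell by 0.97 (limma adjusted p = 0.0141), and the mitochondrial protease subunit gene clpxa fell by 0.92 (adjusted p = 0.0301).

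**Figure D4:**
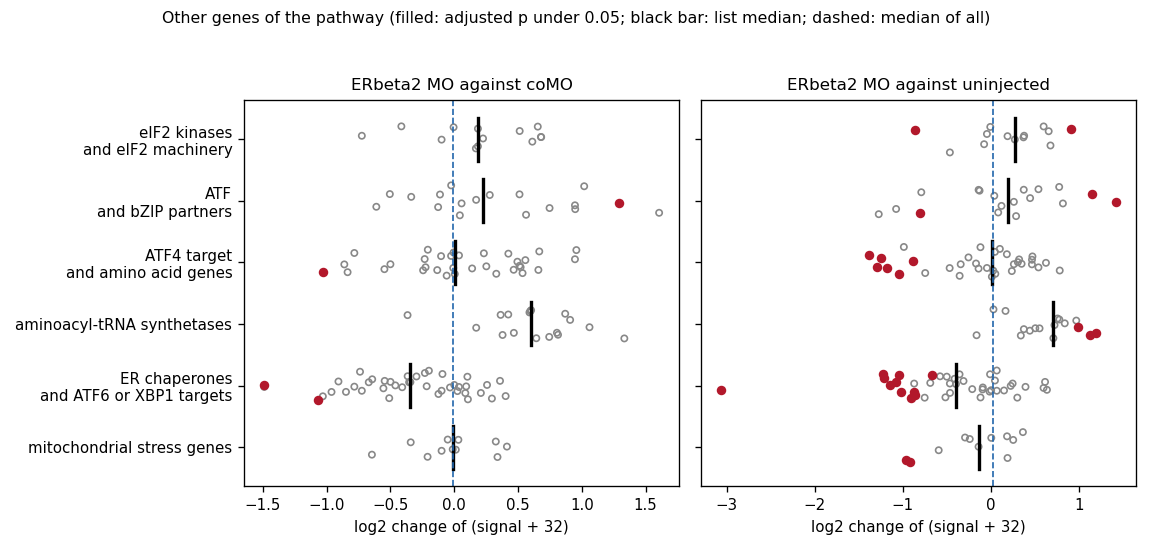
Fitted log2 change of signal + 32 (x axis) of each tested gene in 6 lists of the pathway (y axis, points spread vertically for legibility), against coMO on the left and uninjected embryos on the right. Filled points passed a limma adjusted p of 0.05, black bars are list medians and the dashed line is the median of all tested probe sets. The tRNA synthetases lie mostly right of the line and the ER chaperones mostly left.

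Marker sums of several secretory and other tissues differed between these groups, while others did not set the ERbeta2 MO arrays apart. The summed signal of 15 of 20 exocrine pancreas markers, a tissue rich in ER, was 1346 and 2831 in the ERbeta2 MO arrays, 7035 and 12613 in the coMO arrays and 51087 and 21259 in the uninjected arrays. That of 13 of 18 liver markers read 37335 and 28884 (ERbeta2 MO), 43864 and 74954 (coMO), and 84130 and 82458 (uninjected). That of 11 of 14 photoreceptor markers read 4162 and 14242, 56183 and 70002, and 72629 and 71774 in turn. A sum follows its brightest markers most. Against coMO, 2 of 15 tested pancreas, 3 of 13 liver and 2 of 10 photoreceptor markers had a change above 0. Of those 10 photoreceptor markers, limma called 1 higher and 8 lower against uninjected embryos. All 3 sums were lowest on the ERbeta2 MO arrays, as were hsp90b1, calr3a and chac1. Between coMO and uninjected embryos the 3 sums were lower in coMO, as was chac1 (3590 and 3456 in coMO, 4079 and 3888 in uninjected). The signals of hsp90b1 (2471 and 2824 in coMO, 1909 and 2518 in uninjected) and calr3a overlapped between those groups. The white blood cell sum, over 9 of 12 markers, was 2658 and 1628, 1265 and 1382, and 1641 and 1600, and was highest on ERbeta2 MO replicate 1, as was atf3. Its markers did not move together: of 7 tested, 4 were above 0 and 3 below, both against coMO and against uninjected embryos. The epidermis sum, over 12 of 13 markers, was 53129 and 22586, 56871 and 75970, and 87914 and 81652, also lowest on the ERbeta2 MO arrays. The red blood cell sum, over 8 of 10 markers, was 38892 and 49180, 33868 and 32868, and 14584 and 20468, and was highest on the ERbeta2 MO arrays, as were the 4 ATF genes. This sum was also higher in coMO than in uninjected embryos, while the ATF genes changed by -0.41 to 0.16 between those groups. The skeletal muscle sum, over 12 of 15 markers, was 206438 to 297463. Over 10 of 11 neuron markers the sum was 34529 and 60666, 52441 and 45848, and 36797 and 39027. For 6 of 7 notochord markers it was 20959 and 25130, 27317 and 26617, and 19185 and 24321. For 2 of 8 hatching gland markers it was 3068 and 2317, 2870 and 4162, and 4680 and 3822. No marker in these lists was at 0 on all arrays. The part of cell composition in the changes of the stress genes was not tested.

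The probe sets most like a member over the 6 arrays were found by Pearson's r of log2(signal + 32) among 8690 with 1 symbol. For atf3 they were ube2d2l, boc and rtca, each with r = 0.995. For atf4b they were c1d and urm1 with r = 0.997 and kansl3 with r = 0.996. For chac1 they were si:ch73-237c6.1 with r = 0.997 and decr1 and limch1b with r = 0.994. For xbp1 they were pfkfb3 with r = 0.992, dgcr8 with r = 0.988 and pa2g4a with r = 0.987. Such values are common over so few arrays that share 3 groups: 416 probe sets had r over 0.9 with atf3, 583 with atf4b, 503 with chac1 and 147 with xbp1.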

How the data were processed

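Per the labels, the RNA carried a biotin label and the kit was from Affymetrix. The deposited values are MAS5 signals, an intensity on a linear scale, and the submitters' processing notes name MAS5 without a version. The authors also deposited 3 tables of ratios between groups, from the values only those of at least 2 or at most 0.5; their way of combining arrays is not stated in the labels. The number of arrays limits the precision.

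Signals were taken as log2(signal + 32). The 115 control probe sets and the 25% with the lowest mean (under 72.8) were left out, and no detection calls were used. In limma 3.58.1 (R 4.3.3), lmFit fitted 1 model of 3 groups to 6 arrays and eBayes used an intensity trend (3 residual and 5.28 prior degrees of freedom) for 11626 probe sets, two-sided, with Benjamini-Hochberg adjustment and a threshold of 0.05. With 2 arrays a group, exact permutation gives no p under 0.333. The p-values measure the spread between these pools only.

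Of 15617 probe sets 10802 had 1 symbol, 135 several and 4680 none; 10718 symbols matched the gene table of assembly GRCz12tu by gene number, and 1 was updated. The brightest probe set stands for a list gene. The members and lists were chosen with earlier results of these data known. Named genes are all members, up to 3 called genes per direction, list and comparison with the largest change, a fixed set of pathway genes, and the 3 probe sets most like atf3, atf4b, chac1 and xbp1. The gene slc3a2b is named beside its copy slc3a2a. A planned look at promoter motifs and protein identity was not run, as no sequences were used here.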

Additional observations from a re-analysis of the deposited data

How the results depend on the processing

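Alternatives to the pseudocount, filter, scaling, prior, samples, covariate and block were run in limma; where an arm kept 1 array, it is assumed to vary like the other groups. Of the members' changes, 357 stayed within the spread between replicates of their value and 45 moved beyond it; of those of list genes, 800 kept their call or stayed within that spread, 107 lost a call, 7 gained one and 36 moved. None of the 21 called values of list genes turned its sign in these settings, while 15 of the 35 uncalled ones did in at least 1, fosab against uninjected embryos among them (-0.59 to 0.95). A call needs a change that is large beside its error on these same arrays, so this contrast was nearly fixed in advance and supports none of the calls. The 266 calls against coMO became 160 with a pseudocount of 1, 129 with no filter, 60 with only the 4 arrays compared and 0 with the GAPDH covariate, and ranged from 0 to 1602 with 1 array left out: 590 and 1602 without ERbeta2 MO replicates 1 and 2, 1 and 0 without those of coMO, and 55 and 39 without those of uninjected embryos. Member calls in that comparison were 1 with only the 4 arrays, 0 with the covariate and 0 to 4 with 1 array left out. The 2156 calls against uninjected embryos became 0 with the covariate and 35 to 3150 with 1 array left out (35 and 390 without uninjected replicates 1 and 2), and the 6 member calls 0 with the covariate and 0 to 6 with 1 array left out. Between coMO and uninjected embryos the 0 calls became 2 with only the 4 arrays and 0 to 4 with 1 array left out. The cause of these moves was not tested. Centring each array on its median moved the split of calls from 76 higher and 190 lower to 97 and 149 against coMO, and from 966 and 1190 to 1495 and 1015 against uninjected embryos, and the median of all probe sets there from 0.0262 to 0.145. Replicate numbers are only shared between groups (correlations of same-numbered deviations of -0.0836, 0.109 and -0.0979); with the replicate block the 3 comparisons gave 142, 1927 and 0 calls and 2, 5 and 0 member calls.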
